A study of Caenorhabditis elegans with 12 samples.

Results

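The antioxidant enzyme genes described here are 5 superoxide dismutases (*sod-1* to *sod-5*), 3 catalases (*ctl-1* to *ctl-3*) and 2 peroxiredoxins (*prdx-2* and *prdx-3*) of *C. elegans*. They were chosen by gene name, and all 10 were found among the 12749 genes of the table used. RNA came from whole day 1 adult worms of 4 groups with 3 independent biological repeats each, which gave 12 libraries. The groups were *mdt-15(tm2182)* mutants, written *mdt-15(-)*, at 15 °C and at 25 °C, and the wild type, Bristol N2, at 15 °C and at 25 °C. All worms were synchronized and fed OP50 bacteria. The *mdt-15* gene encodes a component of Mediator, the complex that links transcription factors to RNA polymerase. Whole worms mix intestine, muscle, hypodermis, neurons and germ line, so a level cannot be assigned to a tissue, and more cells of a type cannot be told apart from more RNA per cell.

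The tables used give 1 value per gene that can be read as a level, the average log2 cpm over all libraries of the authors' fit, where cpm is a read count scaled to the size of its library. This average pools both genotypes and both temperatures, and no value per library was used. No spread between repeats, no interval and no test can therefore be given, and library depths are unknown. Effects of *mdt-15(-)* and of temperature on these genes were not analysed here, since the other columns of the tables hold the authors' own comparison statistics. What follows is a description of how abundant each transcript was across the whole experiment. To compare genes, each level was divided by the summed length of the gene's exons and is given as cpm per kilobase (kb) or its log2. Because log2 values were averaged, a cpm given here is a geometric mean over libraries. The percentile of a gene is the share of the other 12711 genes with a known length that had a lower log2 cpm per kb. Below, all genes means these 12712 genes, which were left after the authors' exclusion of genes under 1 cpm. A percentile is thus a place among the genes kept, not among all annotated genes.

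Superoxide dismutases convert superoxide, a by-product of respiration, into hydrogen peroxide and oxygen. Catalases and peroxiredoxins then remove the hydrogen peroxide. Catalases do so directly with a heme group, and peroxiredoxins through a reactive cysteine that thioredoxin restores. In worms, SOD-1 and SOD-5 are cytosolic copper/zinc enzymes, SOD-4 is a copper/zinc enzyme made for the outside of cells, and SOD-2 and SOD-3 are manganese enzymes of the mitochondrial matrix. CTL-2 is the main peroxisomal catalase, and CTL-1 is regarded as cytosolic. PRDX-2 is the main cytosolic peroxiredoxin and PRDX-3 the mitochondrial one. Several of these genes, among them *sod-3*, are known targets of the FOXO transcription factor DAF-16, which is held back by the insulin/IGF-1 receptor DAF-2.

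The 10 genes fell into 4 at a high level and 6 at a middle or low level. *prdx-2*, *prdx-3*, *sod-1* and *sod-2* lay in the top 10% of all genes, above 6.54 log2 cpm per kb. The other 6 lay between 0.05 and 3.52 log2 cpm per kb, and no member was found between these 2 sets. The median of the 10 members was 3.51 log2 cpm per kb, against 2.47 for all 12712 genes, and 8 of the 10 were above the median of all genes. *sod-3*, at percentile 51.0, was just above that median. Without division by length 7 of the 10 were above it, and among genes with an average of at least 1 log2 cpm 6 of the 9 members left were, with *sod-3*, *sod-4* and *ctl-2* below. The members' exons were shorter than those of genes at large, with a median of 841.5 bases, against 1275 bases.

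**Figure D1:**
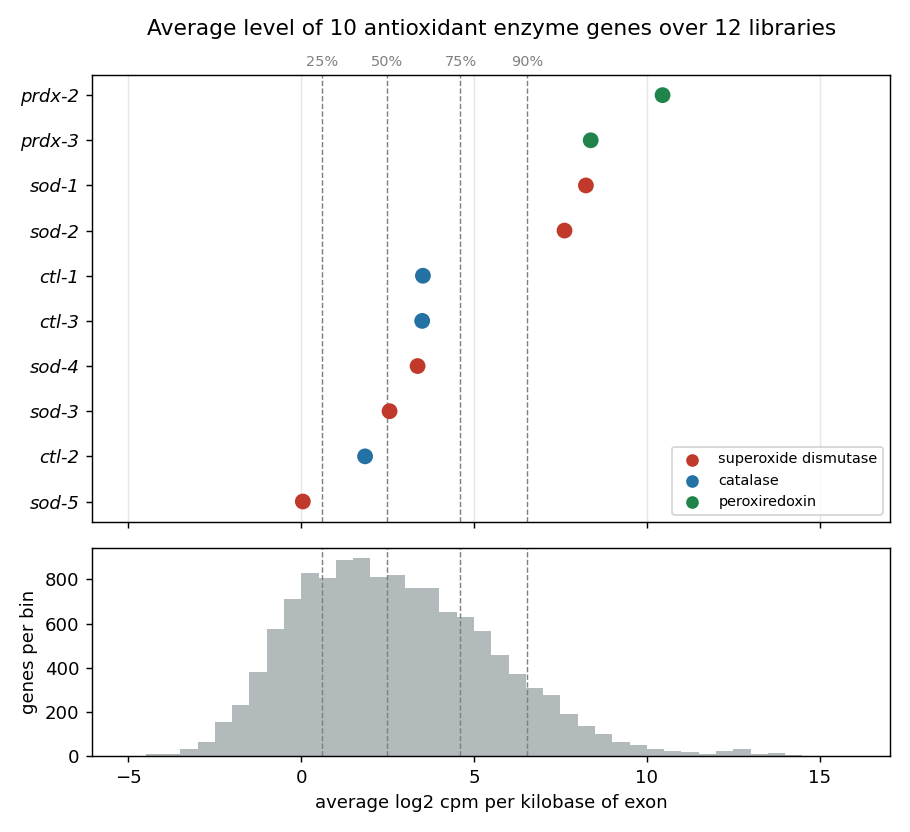
Average level of the 10 antioxidant enzyme genes over the 12 libraries (upper panel, 1 point per gene, coloured by family) above the histogram of all 12712 genes with a length (lower panel, genes per bin). The horizontal axis is average log2 cpm per kb of exon, and dashed lines mark the levels below which 25%, 50%, 75% and 90% of all genes lie. *prdx-2*, *prdx-3*, *sod-1* and *sod-2* sit to the right of the 90% line, and *sod-5* sits to the left of the 25% line at 0.61.

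The 5 superoxide dismutase transcripts covered a wide range, and *sod-1* and *sod-2* made up nearly all of their sum. *sod-1* (WBGene00004930; chromosome II, 6972706 to 6973887, minus strand), the cytosolic enzyme, averaged 302 cpm per kb, at percentile 96.4. *sod-2* (WBGene00004931; chromosome I, 8434550 to 8435807, plus strand), the mitochondrial enzyme, averaged 196 cpm per kb, at percentile 94.8. Between them these genes held 58.5% and 38.1% of the summed cpm per kb of the 5 dismutases. *sod-4* (WBGene00004933; chromosome III, 9496884 to 9500375, minus strand), which encodes the extracellular enzyme, averaged 10.3 cpm per kb, or 2.00% of the sum. *sod-3* (WBGene00004932; chromosome X, 17092753 to 17094306, plus strand) averaged 5.88 cpm per kb, or 1.14%. *sod-5* (WBGene00007036; chromosome II, 4417633 to 4419130, plus strand) averaged 1.03 cpm per kb, or 0.200%. Coordinates are on WBcel235 (ce11) and come from Ensembl release 115.

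In each compartment with a pair of dismutases, 1 gene supplied nearly all of the transcript. In the cytosol *sod-1* averaged 302 cpm per kb and *sod-5* 1.03 cpm per kb, a level too low for a fold to be given. In mitochondria *sod-2* was 33.4-fold above *sod-3*. The 2 leading genes, *sod-1* and *sod-2*, stood 1.54-fold apart. With no spread over libraries, whether *sod-1* and *sod-2* differ cannot be said. The average of *sod-5* without division by length was -0.46 log2 cpm, or 0.729 cpm, and it was the only member below 0 on that scale. In all, 1575 of the 12749 genes had such an average, so the authors' exclusion of genes under 1 cpm was not applied to this average. The log2 values of so few reads depend on the small count that voom adds before taking logs.

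The 3 catalase genes lie one after the other on the minus strand of chromosome II, within 11224 bases. In the direction of transcription the order is *ctl-3* (WBGene00013220; 14307798 to 14310779), *ctl-1* (WBGene00000830; 14303568 to 14306260) and *ctl-2* (WBGene00000831; 14299556 to 14302027). The gap between *ctl-3* and *ctl-1* is 1537 bases, and that between *ctl-1* and *ctl-2* is 1540 bases. *ctl-1* averaged 11.5 cpm per kb and *ctl-3* 11.3 cpm per kb, which put them at percentiles 63.1 and 62.7. *ctl-2*, the peroxisomal catalase, averaged 3.60 cpm per kb, at percentile 41.8. *ctl-1* was 3.19-fold above *ctl-2*, and *ctl-3* was 3.14-fold above it. The summed level of the 3 catalases was 26.4 cpm per kb, or 1.16% of the sum over all 10 members. The catalase genes are close in sequence, and how reads shared between them were assigned was not given in the sources used here, so their separate levels are uncertain.

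**Figure D2:**
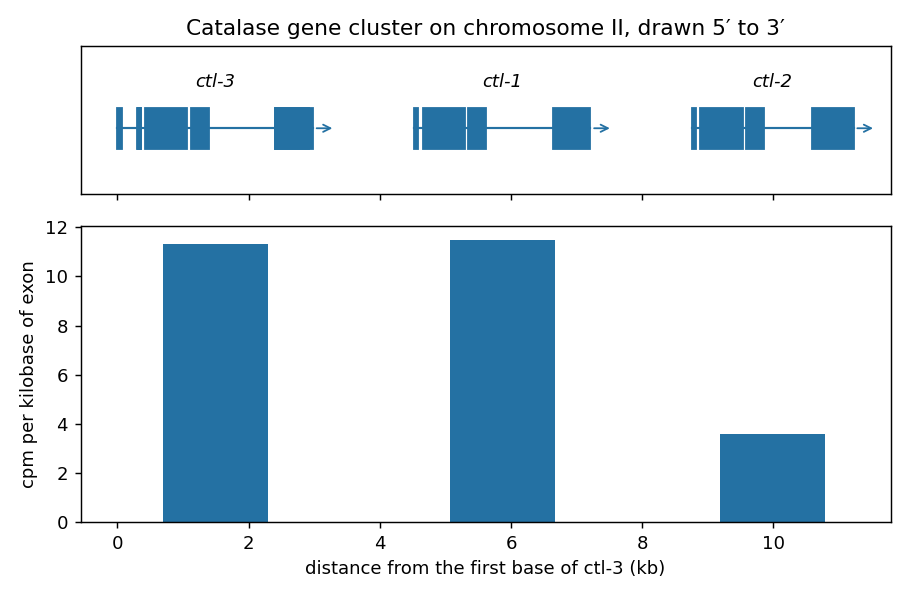
The catalase genes drawn in the direction of transcription, with distance from the first base of *ctl-3* in kb on the horizontal axis. Boxes are annotated exons and arrows point 3′ (upper panel), and bars give the average cpm per kb of exon over the 12 libraries (lower panel). The bars of *ctl-3* (11.3) and *ctl-1* (11.5) are near in height, and that of *ctl-2* (3.60) is the lowest.

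*prdx-2* had the highest level of the 10 members. *prdx-2* (WBGene00006434; chromosome II, 5378195 to 5379631, plus strand) averaged 1403 cpm per kb and ranked 140 of 12712 genes. *prdx-3* (WBGene00011110; chromosome III, 4407444 to 4408437, plus strand) averaged 332 cpm per kb and ranked 420. It was 1.10-fold above *sod-1* by exon length but 0.938-fold of it by coding length, so these genes are not ordered here. *prdx-2* alone held 61.6% of the summed cpm per kb of all 10 members, and both peroxiredoxins together 76.2%, against 22.6% for the 5 dismutases. *prdx-2* was 4.23-fold above *prdx-3*, 4.65-fold above *sod-1* and 122-fold above *ctl-1*. Among the enzymes that act on hydrogen peroxide, both peroxiredoxin transcripts thus stood above all 3 catalase transcripts in this average. Transcript levels do not give enzyme amounts or activities. A further peroxiredoxin, *prdx-6*, which is no member, averaged 90.0 cpm per kb, so that *prdx-2* was 15.6-fold and *prdx-3* 3.69-fold above it.

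Among genes for mitochondrial enzymes, *prdx-3* and *sod-2* were 1.69-fold apart. The thioredoxin gene *trx-2*, whose product serves mitochondria, averaged 203 cpm per kb, and *trxr-2*, which encodes the mitochondrial thioredoxin reductase, averaged 4.55 cpm per kb. *prdx-3* was 1.64-fold above *trx-2*, and *trx-2* was 44.5-fold above *trxr-2*. Without division by length *trx-2* was 14.3-fold above *trxr-2*. With no spread over libraries, whether *prdx-3* differs from *sod-2* or *trx-2* cannot be said. The cytosolic reductase gene, *trxr-1*, averaged 13.7 cpm per kb.

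The wider thioredoxin and glutathione systems were read from a list of 21 genes, of which 19 had a level. *trx-1* and *gpx-8* were not found by name among the genes of the table used. The median of the 19 was 4.82 log2 cpm per kb, against 3.51 for the 10 members, and 15 of the 19 were above the median of all genes. In this list 5 genes were in the top 10%. The glutaredoxin gene *glrx-10*, at 683 cpm per kb, and the methionine sulfoxide reductase gene *msra-1*, at 391 cpm per kb, exceeded every member but *prdx-2*. Glutathione reductase, *gsr-1*, averaged 114 cpm per kb. Of the enzymes that build glutathione, *gcs-1*, the first enzyme of the pathway, averaged 12.2 cpm per kb, and *gss-1*, the second, 28.2 cpm per kb. The 7 glutathione peroxidase genes with a level lay between 3.10 (*gpx-4*) and 47.9 cpm per kb (*gpx-1*). All 7 were below *sod-2*, and 4 of them were above *ctl-1*.

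The 6 upstream regulators listed had a median of 2.00 log2 cpm per kb, against 2.47 for all genes, and none was in the top 10%. Undivided by length, the order was reversed, with a median of 3.40 log2 cpm against 2.86 for all genes with a length. The regulators' exons were longer, with a median of 2971.5 bases, against 1275 bases. *skn-1*, which encodes an Nrf-type transcription factor of the oxidative stress response, averaged 7.27 cpm per kb, and *daf-16* 2.46 cpm per kb. *daf-2* averaged 0.683 cpm per kb, below every member on this scale. Its exons sum to 8296 bases, and undivided by length it averaged 2.50 log2 cpm. That is above *sod-3* (2.37) and *sod-5* (-0.46). The heat-shock factor gene *hsf-1* averaged 4.99 cpm per kb, *wdr-23*, whose product restrains SKN-1, 5.84 cpm per kb, and the p38 kinase gene *pmk-1* 3.20 cpm per kb. Of the genes of metal supply, the copper chaperone gene *cuc-1* averaged 250 cpm per kb. The ferritin gene *ftn-2* averaged 343 cpm per kb and its paralog *ftn-1* 1.24 cpm per kb. Without division by length *ftn-1* averaged -0.41 log2 cpm, a level as low as that of *sod-5*, so no fold is given.

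**Figure D3:**
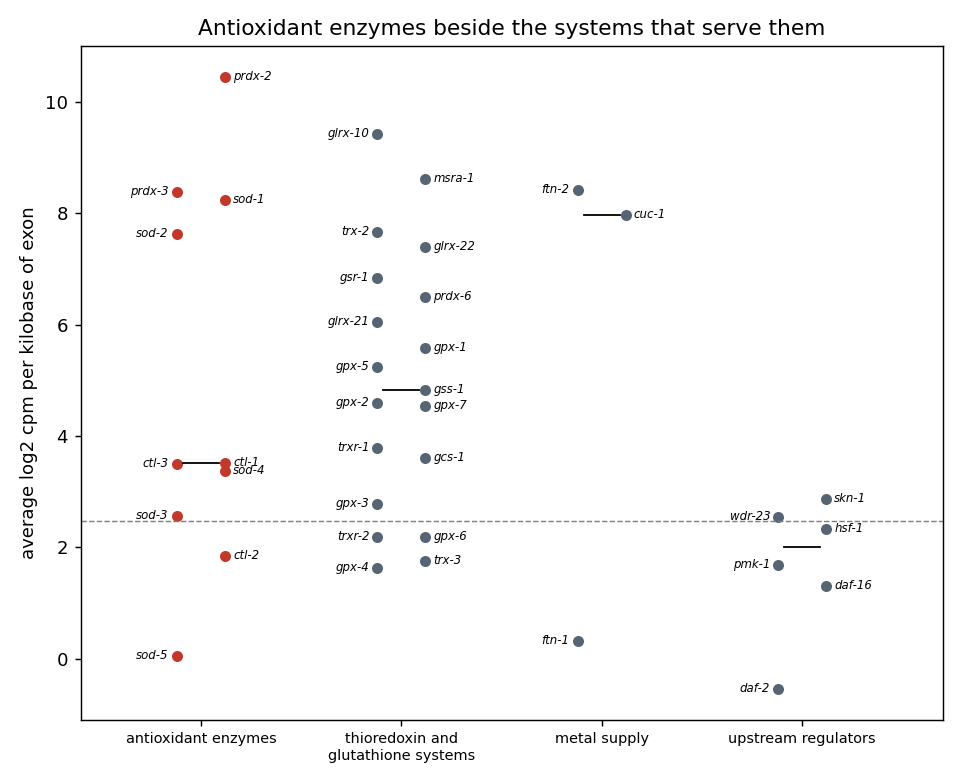
Average log2 cpm per kb of exon (vertical axis) of the 10 antioxidant enzyme genes, 19 genes of the thioredoxin and glutathione systems, 3 genes of metal supply and 6 upstream regulators, 1 point per gene. Short black lines are list medians, and the dashed line is the median of all 12712 genes at 2.47. On this scale the antioxidant enzymes span the range of all 4 columns but for *daf-2*, which lies below *sod-5*.

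The members' gene structures were also read, and their effect on these levels was not tested. Of the 10 genes, 6 lie on chromosome II, which holds 17.1% of the genes of the table, and 3 of these 6 form the catalase cluster. A single transcript is annotated for 6 of the 10 genes, and 4 transcripts for *sod-4*. In 5 of the 10 genes an exon overlaps an exon of another gene, in each case on the other strand. The overlap is largest for *sod-4*, where 175 of 1306 exon bases (13.4%) are shared with *ctr-9*, a gene at 3.68 log2 cpm per kb, against 3.37 for *sod-4*. In *sod-1*, 85 bases (11.8%) are shared with the noncoding RNA gene C15F1.13. In *sod-3*, 65 bases (7.38%) are shared with C08A9.3 and 24 bases (2.72%) with *lido-1*, a gene at 2.24 log2 cpm per kb, against 2.56 for *sod-3*. In *ctl-2*, 65 bases (4.03%) are shared with Y54G11A.7, a gene at 3.58 log2 cpm per kb, against 1.85 for *ctl-2*. *sod-2* lies wholly inside the span of *dpt-1*, and 21 of its exon bases (2.62%) are shared. *dpt-1* was at 4.96 log2 cpm per kb, against 7.62 for *sod-2*. Whether the libraries kept strand was also not given there, and without strand the reads of such stretches cannot be told apart. *sod-5*, *ctl-1*, *ctl-3*, *prdx-2* and *prdx-3* overlap no annotated gene.

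Markers of several tissues were present in the same average. The vitellogenin genes *vit-2* and *vit-6* of the intestine averaged 399 and 514 cpm per kb, and the adult cuticle collagen gene *col-19* averaged 5410 cpm per kb. Of 14 markers listed, 13 had a level, *spe-9* was not found by name, and 9 were above the median of all genes. The other intestinal markers were far lower, with the GATA factor gene *elt-2* at 2.21 and the esterase gene *ges-1* at 5.87 cpm per kb, and the cuticle collagen gene *dpy-7* was at 1.51 cpm per kb. Of the muscle myosin genes, *unc-54* averaged 22.4 and *myo-3* 2.65 cpm per kb. Of the germ line genes, *pgl-1* averaged 70.9 and *glp-1* 3.81 cpm per kb. The oocyte genes *rme-2* and *puf-5* averaged 98.2 and 114 cpm per kb and the sperm gene *msp-3* 154 cpm per kb. The *mdt-15* gene averaged 0.269 cpm per kb over wild-type and mutant libraries together, which gives no check of the genotype labels. Its exons sum to 4279 bases, and without division by length it averaged 0.20 log2 cpm, also a low level.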

How the data were processed

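RNA-seq of whole day 1 adult worms was read from 3 deposited tables. Paired-end reads were mapped by the authors with HISAT2 (2.0.5) on ce11, followed by StringTie (1.3.3) and Ballgown. The authors excluded genes under 1 cpm, and used limma (3.24.15) with voom and edgeR (3.10.5). The deposited log2 values used here are limma's average log2 cpm. For the genes they share, tables that compare different groups hold the same averages to within 0.0003. Each was therefore read as the average over all 12 libraries. The table of wild type against *mdt-15(-)* at 15 °C holds 12443 genes, 306 fewer than the main table. Their gene annotation and read assignment were not given in the sources used here. The tables also hold log2 fold changes, moderated t, p, adjusted p and log odds of the authors' own comparisons, and these 5 columns were not used. With no value per library, library totals were unknown, and no test, replicate error or leave-one-out was possible, unlike the design laid out for values per library.

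Exon lengths were taken from Ensembl release 115 (WBcel235), where 37 of 12749 identifiers were not matched. Level per kb is the average log2 cpm minus log2 of the exon length in kb. The table of wild type at 15 °C against 25 °C gave the main values. Genes named are the 10 members and lists of related genes and markers. Members and lists were chosen with earlier results of these data known. Overlapping genes were named after their positions were seen. The length and percentile steps were tested on simulated data. Python 3.11.15, numpy 2.4.6, pandas 2.3.3 and matplotlib 3.10.9 were used.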

Additional observations from a re-analysis of the deposited data

How the results depend on the processing

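The median of the 10 members, 4.18 log2 cpm without division by length, was recomputed from each of the other 2 tables. Gene by gene, over the genes shared, the averages differed from the main table by at most 0.0003. Among genes with an average of at least 1 log2 cpm, which leaves out *sod-5*, the members' median was 4.20, and all 9 percentiles were lower, by up to 18.4 points for *ctl-2* (23.3). Alternatives added after seeing the data were these. With protein-coding genes only, percentiles moved by at most 0.256 points. Without division by length, that of *sod-5* was 6.20, the largest move. With the longest transcript or the coding length in place of all exons, *sod-4* moved most, to 65.3 and 68.0. It then stood above *ctl-1* and *ctl-3*, which it is 1.11-fold and 1.10-fold below by all exons. With coding length, *sod-1* also stood above *prdx-3*, and *ctl-3* above *ctl-1*. *prdx-2* stayed highest, and *sod-3*, *ctl-2* and *sod-5* lowest in that order, under all 3 lengths. Without division by length *ctl-2* (2.53 log2 cpm) stood above *sod-3* (2.37). The planned comparisons between groups, with their alternatives, were not run. No paired analysis was possible because the columns used carry no replicate number.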
